A study of Mus musculus with 32 samples.

Results

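The CAST and B6 alleles of autosomal genes were compared in the medial prefrontal cortex (PFC) of F1 hybrid mice, with the effect of the mother and father cancelled by averaging over both directions of the cross. A gene entered when it lay on chromosomes 1 to 19 and had a mean of 20 or more informative reads per pool, which are reads that cover a base where the strains differ. It counted as a member when its CAST share, the percent of those reads that carried the CAST base, was above 50% in both crosses or below it in both. Of 14129 gene symbols with informative reads in the PFC, and 18508 in the whole series, 11029 passed the filters and 8411 were members, 3113 on the CAST side and 5298 on the B6 side. The other 2618 genes lay on opposite sides in the 2 crosses or at 50%.

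Each F1 animal had 1 parent of CAST/EiJ (CAST), which was bred from wild castaneus mice, and 1 of C57BL/6J (B6), the usual laboratory strain. F1i animals had a CAST mother and a B6 father, and F1r animals a B6 mother and a CAST father. Polyadenylated RNA came from 5-week-old animals, 8 to 10 of a single sex per pool, which gave a male and a female pool for each cross, 4 PFC pools in all, each sequenced as 2 technical replicates that were summed. The preoptic area (POA), a hypothalamic region of animals of the same age, gave 4 matching pools, and whole brain at embryonic day 15 (E15) gave 1 pool per cross. No pool was sampled again from other animals, so the spread between pools includes cross and sex as well as animals. Per-pool values below are in the order F1i male, F1i female, F1r male and F1r female, and means carry the SD over these pools (n = 4).

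In an F1 nucleus both alleles meet the same transcription factors, hormones and cell history. A gene transcribed, spliced or degraded unequally from its 2 homologues therefore points to sequence differences that act in cis, on the chromosome that carries them, such as promoter, enhancer, splice-site and untranslated-region variants. In cortex, where neurons, glia and vessels each use their own regulatory elements, the same variant can act in some cell types and not in others.

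The bases that told the alleles apart are shown for 10 genes on which the results below turn. Of these, 5 had more CAST and 5 more B6 reads. Each base is shown in a window of 29 contiguous genome bases of the B6 reference (NCBIM37, the same assembly as mm9) on the transcript's strand. The informative base is annotated as coding, but the bases around it were not checked and may include intron. The capital letter is the informative base at position 15, counted from 1 at the 5′ end of the window. The token gives the B6 base, the position and the CAST base.
Retsat, chr6:72556464-72556492, plus strand, G15C: ccaacctgggaggaGcgattcccaggtag
Rsph1, chr17:31402781-31402809, minus strand, A15G: gagctcatccacctAaaccacaggtacca
Pla2g4e, chr2:120011008-120011036, minus strand, A15G: tgtcccgccttgccAggagccctgctacc
Cacng5, chr11:107742946-107742974, minus strand, G15C: gggcacatccgtccGcaccggaccatact
Gabra2, chr5:71353195-71353223, minus strand, G15A: acgacgccagaaccGaacaagaagccaga
Evc2, chr5:37815736-37815764, plus strand, C15T: ggagaactggctccCatccccatcactgg
Ifngr2, chr16:91561957-91561985, plus strand, A15G: aaataccaaagccgAgtgaagtactggtt
Hopx, chr5:77523913-77523941, minus strand, C15T: acgctgtgcctcatCgcagccgaggcggg
Scn3b, chr9:40087086-40087114, plus strand, T15C: ggcctctacacatgTaatgtgtccaggga
C1qa, chr4:136452139-136452167, minus strand, A15G: gaggtgtggatcgaAaaggaccccgcaaa

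At the printed base, summed over the 4 pools, Gabra2 had 651 CAST and 320 B6 reads, Retsat 232 CAST and 20 B6 reads, and Scn3b 134 CAST and 499 B6 reads. The base of Hopx had 159 CAST and 481 B6 reads. Reads over the same base of the same animals thus differed by allele in either direction, depending on the gene.

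The PFC pools held 4859760 to 7302282 informative reads of tested genes, and the CAST percent of all of these without Atpase6, a mitochondrial gene that the deposited table places on an autosome, was 47.2 to 49.2. Cortical identity was looked at on marker genes. Slc17a7 is the vesicular glutamate transporter of cortical excitatory neurons. It had a mean of 17319 informative reads per pool in the PFC against 8.75 in the POA. Of the same list, Foxp2 (12 against 80.25), Ntng1 (91 against 130.25), Rasgrf2, Rorb and Tle4 had fewer reads in the PFC. The other members listed in the PFC had more there or were not listed in the POA. None of 12 choroid plexus and ependymal markers was listed in the PFC, but Folr1, Kcne2, Ccdc153 and Tmem212 were not listed in the POA either. The median gene had a CAST share of 48.4% (quartiles 44.6% and 52.3%), and the median SD of a gene over the 4 pools was 4.01 points. The per-pool medians were 47.2%, 48.6%, 48.5% and 49.3%, all slightly to the B6 side.

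A gene was called when the CAST to B6 ratio departed from 1 at a Benjamini-Hochberg adjusted p under 0.05 in edgeR's quasi-likelihood test and the gene was a member. The CAST allele was called higher for 1278 genes, 11.6% of those tested, and the B6 allele for 2646, or 24.0% (35.6% in either direction), while 4487 members were not called. The called CAST genes had a median CAST share of 58.8% and the called B6 genes one of 41.6%, so most called differences were modest. A log2 ratio of at least 1, which is a difference of 2-fold or more, was reached by 224 CAST and 316 B6 genes. The far ends were uneven: 24 CAST genes had a CAST share of 80% or more in every pool, and 5 B6 genes had a B6 share of that size. At 90% or more the numbers were 9 CAST genes and 0 B6 genes. These counts take in all called genes, shallow ones included. Whether the choice of listed bases favoured genes with many CAST reads was not tested, so the unevenness may not reflect expression alone.

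**Figure D1:**
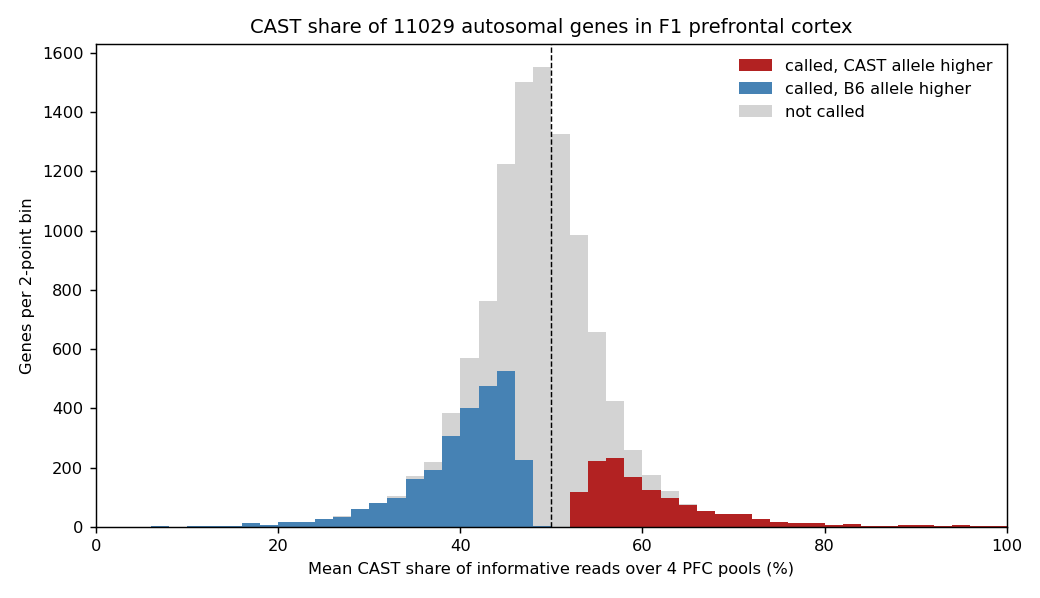
Histogram of the mean CAST share (%, x axis) over the 4 PFC pools for the 11029 tested genes, in bins of 2 points (y axis, genes), with called CAST genes in red, called B6 genes in blue and genes not called in grey. The bulk lies close to 50% (median 48.4%), and the called genes form both flanks.

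The balance between the directions depended on the scaling. With equal library sizes for both alleles of a pool, 32.6% of the calls were CAST, with each allele scaled to its own total 53.5%, and with TMM (trimmed mean of M values) factors 49.6%, while the median log2 ratio of all genes was −0.09, 0.02 and 0.00 under these 3 scalings. All 1278 CAST calls and 1780 of the B6 calls (16.1% of tested genes) held in all 3, so a B6 call that does not hold in them is named as such below. Atpase6 was left in the totals used to scale each allele. It moved the CAST percent of reads from 48.4 to 51.5 in the F1i female pool. In the F1r male pool it moved that percent from 48.6 to 44.6. DESeq2 called 524 CAST and 1152 B6 genes, and all of these were among the edgeR calls. Deeper genes were called more often: from the 1874 genes with 20 to under 50 reads per pool to the 1115 genes with 1000 or more, CAST calls went up from 8.00% to 16.0% and B6 calls from 13.6% to 40.4%, while the median CAST share stayed between 48.2% and 48.6%.

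Of the genes with at least 100 reads per pool and 3 informative bases, the most CAST-sided were LOC381484 and Sirpb1, both on chromosome 3. Sirpb1, a signal-regulatory protein receptor of myeloid cells, had 63, 190, 147 and 103 CAST reads against 5, 2, 2 and 1 B6 reads, and a mean CAST share of 97.3% ± 3.1. The CAST allele gave nearly all reads in every pool. LOC381484 had CAST shares of 94.7%, 99.1%, 100% and 100%. The Sirpb1 family has close copies in the genome, so its reads may be shared between them. Retsat, which encodes retinol saturase, had 85, 151, 97 and 159 CAST reads against 9, 19, 5 and 12 B6 reads. Its log2 ratio was 3.48 ± 0.18 (SE) at an edgeR adjusted p of 2.3e-11, and the CAST allele was likewise above 80% in the POA (90.0% ± 3.2) and in both E15 pools (84.4% in F1i and 81.7% in F1r).

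Rsph1, a radial spoke protein of motile cilia, had CAST shares of 81.2%, 89.7%, 80.4% and 80.0% in the PFC, a mean of 83.5% in the POA and of 84.9% at E15. Pla2g4e, a cytosolic phospholipase A2, had 79.8%, 79.7%, 81.8% and 87.1%, with a mean of 86.1% in the POA and of 74.5% at E15. Both genes were on the CAST side in all 3 brain samples, and neither difference between PFC and POA or E15 passed its test (edgeR adjusted p from 0.08 to 0.95). For Pla2g4e the PFC minus E15 difference was 0.68 ± 0.22 on the log2 scale (SE; edgeR adjusted p = 0.08). Cacng5, an auxiliary subunit of AMPA-type glutamate receptors, had 76.7%, 78.2%, 85.7% and 77.3% in the PFC, and Pcdh21, a cadherin named for photoreceptors and listed by RefSeq as Cdhr1, had 80.0%, 82.1%, 82.3% and 77.9%. Their shares were much nearer to 50% in the other brain samples, as described below. Odc1, the first enzyme of polyamine synthesis, averaged 79.1% ± 4.3, with bases from 47.7% to 100%. In the E15 brains of the parental strains, with the reads of each strain scaled to its total, its CAST share was 14.2%, the other side. Both E15 hybrid pools were CAST-sided (mean 70.7%). Pmaip1, the BH3-only protein Noxa, averaged 78.2% ± 4.6. 4933439C20Rik, which RefSeq lists as the pseudogene Pisd-ps3, averaged 82.3% ± 3.0.

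Alignment to the genome gave a different picture for part of these. Slc7a11, the cystine/glutamate antiporter, had a CAST share of 87.2% ± 6.7 on transcripts, but only 1 of its 2 bases with 40 or more reads was on the CAST side (99.5% against 36.7%), and the genome-aligned share was 30.4%. B230354K17Rik had 81.2% ± 3.3 on transcripts and was below 50% on a mean of 4 genome-aligned reads. Retsat, Rsph1, Pla2g4e and Cacng5 had genome-aligned shares of 90.0%, 83.1%, 80.3% and 78.6%, close to those on transcripts.

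On the B6 side, under the same limits of 100 reads per pool and 3 bases, the lowest log2 ratio was that of Rfng, radical fringe, a glycosyltransferase that modifies Notch. It had 10, 19, 19 and 28 CAST reads against 104, 130, 56 and 179 B6 reads, a CAST share of 15.1% ± 7.1, and 31.2% on a mean of 11.3 genome-aligned reads at 1 base. Gsta4, a glutathione transferase for lipid peroxidation products, had 50, 63, 48 and 97 CAST reads against 268, 270, 186 and 310 B6 reads. The B6 allele was higher in every pool, with a log2 ratio of −2.02 ± 0.11 (SE) and an edgeR adjusted p of 2.8e-11. Evc2, a ciliary protein of the Hedgehog pathway, had CAST shares of 23.7%, 21.6%, 16.8% and 24.7%. Ifngr2, a subunit of the interferon-gamma receptor, had 24.6%, 24.6%, 28.1% and 26.8%. The pools of either gene spanned less than 8 points, and none came near 50%.

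**Figure D2:**
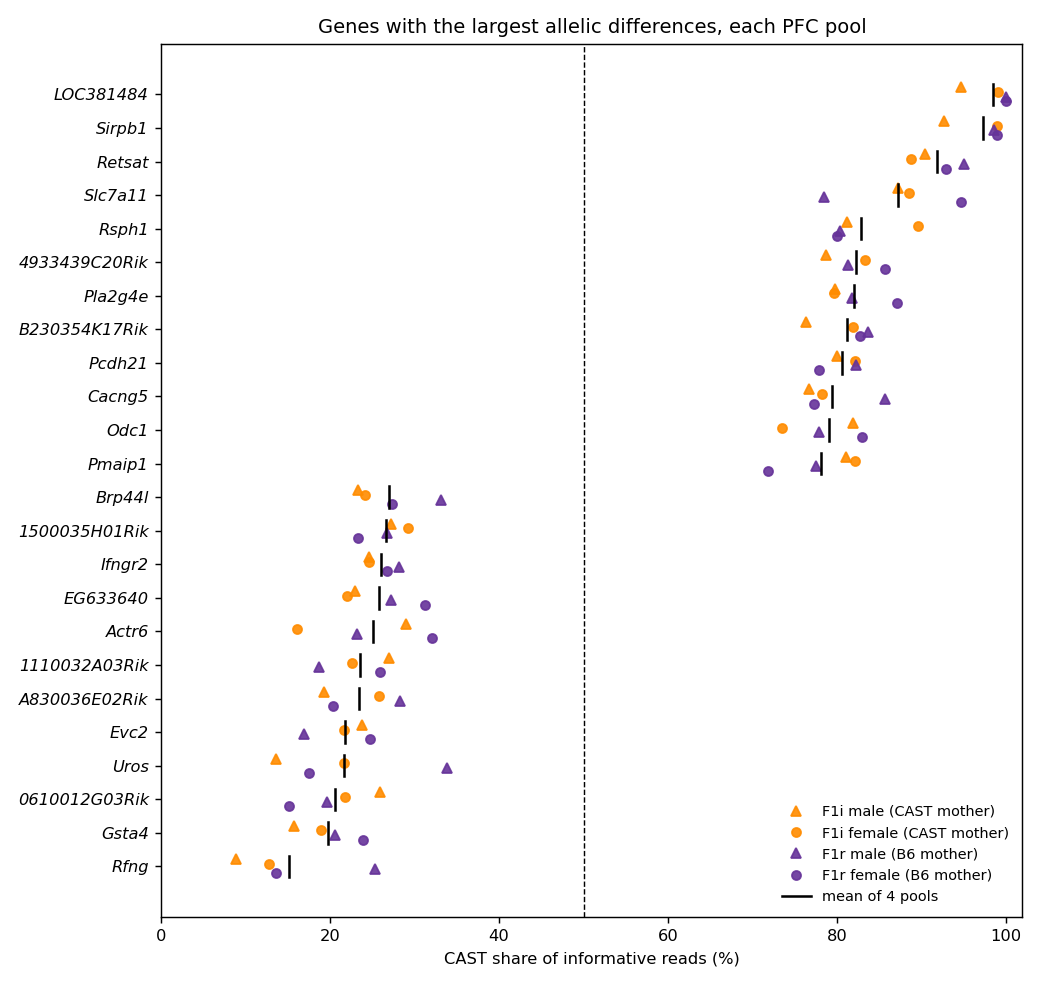
CAST share of informative reads (%, x axis) in each of the 4 PFC pools for the 12 genes with the highest and the 12 with the lowest log2 CAST to B6 ratio. Orange marks F1i and purple F1r pools, triangles males and circles females, and the black bar is the mean. Every point of the upper 12 genes lies above 50% and every point of the lower 12 below it.

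Uros, an enzyme of heme synthesis, averaged 21.6% ± 8.8, with a wider spread (13.6% to 33.9%) than Gsta4. Actr6, a nuclear actin-related protein, averaged 25.0% ± 7.1 in PFC pools against 50.1% ± 8.2 in POA pools; the log2 ratios differed by −1.65 ± 0.25 (SE; adjusted p = 0.00015). Brp44l, which RefSeq lists as the mitochondrial pyruvate carrier Mpc1, averaged 26.9% ± 4.4, but 48.2% on genome-aligned reads. The remaining 5 were 0610012G03Rik, 1110032A03Rik, A830036E02Rik, EG633640 (Tmem267 in RefSeq) and 1500035H01Rik (Ift46 in RefSeq, an intraflagellar transport protein), with means of 20.6% to 26.6%. Uros overlaps Bccip and A830036E02Rik overlaps Krt12, and since the labels state no strand for the counts, reads of overlapping genes cannot be told apart.

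The bases within a gene did not all give the same share. Among called genes with at least 3 bases of 40 or more reads, every such base was on the called side in 247 of 946 CAST genes and 577 of 2142 B6 genes. With a log2 ratio of at least 1 this was so in 61 of 81 CAST genes and 100 of 130 B6 genes. Gabra2 (5 of 5 bases), Pla2g4e (9 of 9), Cacng5 (10 of 10), Gsta4 (6 of 6) and Evc2 (13 of 13) were on 1 side throughout. The same reads set the call of each gene, and bases within a read length share reads, so this is no separate evidence. Scn3b, an auxiliary sodium channel subunit, had 14 of 17 bases on the B6 side, and its bases ranged from 21.0% to 55.5%. Its bases up to transcript position 806 were at 21.0% to 48.1%, and those from 2982 on at 45.0% to 55.5%. The base printed above was at 21.2%, against a mean of 32.7% for the gene. The median CAST share was 48.6% for bases with no other listed base within a read length, 48.5% with 1 such neighbour, 47.5% with 2, 45.2% with 3 and 41.3% for the 448 bases with 4 or more. Whether this touches a particular gene was not tested, but the calls from isolated bases alone are given with the alternatives.

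**Figure D3:**
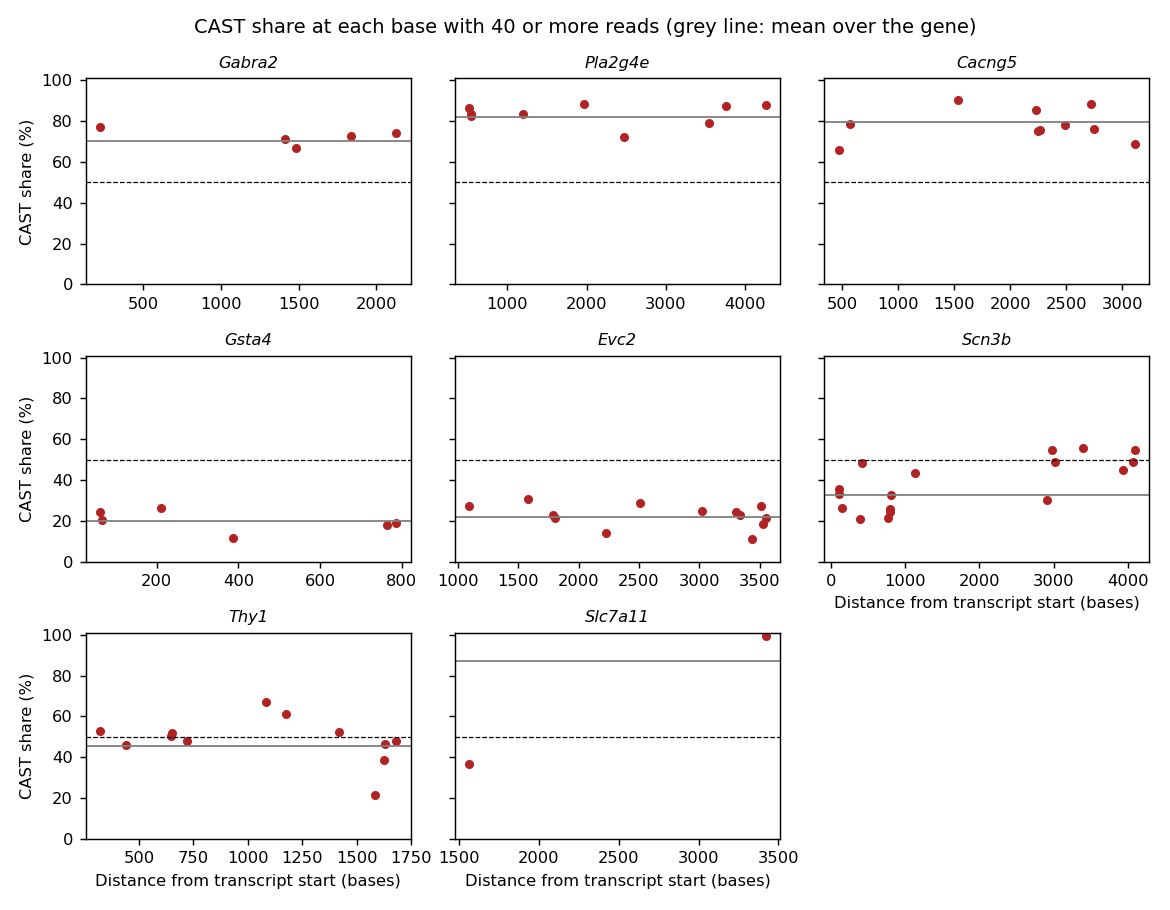
CAST share (%, y axis) at each informative base with 40 or more reads over the 4 PFC pools against its distance from the transcript start (bases, x axis) in 8 genes. The grey line is the mean share of the gene and the dashed line 50%. Gabra2, Pla2g4e and Cacng5 stay above 50% and Gsta4 and Evc2 below it at every base, while Scn3b, Thy1 and Slc7a11 have bases on both sides.

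Genes known for variants that distinguish B6 from other strains were looked at by name. Gabra2, the alpha-2 subunit of the GABA-A receptor, carries an intronic change in C57BL/6J that is known to lower its expression. In the PFC it had 392, 625, 424 and 399 CAST reads against 143, 212, 187 and 232 B6 reads, a CAST share of 70.1% ± 5.1 and a log2 ratio of 1.24 ± 0.08 (SE; edgeR adjusted p = 4.1e-10). CAST reads outnumbered B6 reads in every pool. The share was 68.5% ± 5.8 in the POA and 69.8% and 70.5% in the F1i and F1r E15 pools. In the E15 brains of the 2 parental strains the CAST share at these bases was 81.5%, with the reads of each strain scaled to its total (561 CAST and 149 B6 reads before scaling). Its gene spans chr5:71352296-71487088 (GENCODE vM1 on NCBIM37).

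Wdfy1, an endosomal protein, averaged 75.9% ± 5.4, and Glo1, glyoxalase 1, averaged 61.3% ± 4.0 on a single base. Entpd4, a Golgi and lysosomal nucleotidase, averaged 35.5% ± 1.6 with 15 of 15 bases on the B6 side. Nnt, the mitochondrial transhydrogenase with an in-frame deletion of exons in C57BL/6J, was not called, with CAST shares of 52.0%, 52.7%, 51.2% and 44.4%. In the POA it was called CAST (63.2% ± 6.8, edgeR adjusted p = 0.00063), and the difference between PFC and POA passed its test (edgeR adjusted p = 0.042). Ahr, the aryl hydrocarbon receptor, was not called either (44.0% ± 4.6, adjusted p = 0.13). In all, 3 of these 7 genes were called CAST and 2 B6. The list was put together for being known to differ, so its count says nothing of other genes.

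Gene lists were read against the share of all tested genes, 11.6% CAST and 24.0% B6, and their median log2 of −0.09. Of 22 glutamate receptor genes, 2 were called CAST and 6 B6 (median log2 −0.13). Grik4, a kainate receptor subunit, had CAST shares of 30.8%, 32.8%, 32.3% and 44.3%, and Gria1, an AMPA receptor subunit, had 40.9%, 41.7%, 42.6% and 41.8%. Both were B6-sided in every pool, and Gria1 hardly varied. The B6 call of Grm5 did not hold in all scalings.

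Of 14 GABA and glycine receptor genes 2 were called CAST, Gabra2 and Gabra5 (56.4% ± 4.6, but a log2 ratio of −0.03 and no call on its deepest base alone), and 2 B6, Gabbr1 (44.1% ± 1.1) and Gabbr2, whose call did not hold in all scalings. Gabbr1 and Gabbr2 encode both subunits of the metabotropic GABA-B receptor. Among 39 potassium channel genes 4 were CAST and 11 B6. Kcnj11, the pore of ATP-sensitive potassium channels, had CAST shares of 29.9%, 29.1%, 33.7% and 26.0%, with all 12 bases on the B6 side and a log2 ratio of −1.26 ± 0.10 (SE; edgeR adjusted p = 6.3e-09). Kcnip2, an auxiliary subunit of A-type channels, averaged 27.6% ± 4.3 on 1 base with a mean of 36 reads per pool, and 41.0% on a mean of 1403 genome-aligned reads over 24 bases. Kcnk1, a two-pore-domain channel, averaged 39.8% ± 2.3. Of 28 sodium and calcium channel genes 2 were CAST and 6 B6, among them Scn3b (28.4%, 33.0%, 32.5% and 36.8%) and the calcium channel genes Cacnb2 (40.9% ± 1.9) and Cacna1h (41.7% ± 4.0). Synaptic vesicle and exocytosis genes, 41 in all, had 7 CAST and 9 B6 calls and a median log2 of 0.02. Sv2a, a synaptic vesicle glycoprotein, averaged 61.4% ± 4.7 on 1 base, and Rab3c, a vesicle GTPase, 37.2% ± 4.1.

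Cell type markers differed in how often they were called. None of the 13 tested microglia markers was CAST and 7 were B6, 6 of these in all scalings, and their median log2 was −0.40 against −0.09 over all genes. C1qa, a chain of complement C1q, had CAST shares of 42.4%, 37.7%, 30.5% and 37.5%. C1qb, its partner chain encoded nearby on chromosome 4, had 36.8%, 37.7%, 38.1% and 45.4%. Tmem119, a microglial surface protein, averaged 38.1% ± 4.9, and Trem2, a lipid-sensing receptor, 37.5% ± 3.6. Each of these 4 was B6-sided in every pool and in the POA mean as well (C1qa 46.8%, C1qb 42.4% and Tmem119 39.1%), but C1qa was not called there. At E15 C1qa and C1qb had means of 39.5% and 40.3%, and Tmem119 and Trem2 had means of 49.3% and 51.1%. The F1i and F1r E15 pools were far apart for Tmem119 (55.8% and 42.9%) and Trem2 (63.9% and 38.2%). Neither of these 2 genes differed between PFC and E15 (edgeR adjusted p = 0.34 and 0.38). C1qa and C1qb lie close together on the same chromosome and are not independent observations.

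Of 14 endothelial and mural markers 1 was CAST and 6 B6, 3 of the B6 calls in all scalings. Rgs5, a G-protein regulator of pericytes, had 28.9%, 29.6%, 31.2% and 28.4%, and 27.5% ± 1.3 in the POA. Of 14 astrocyte markers 5 were CAST and 4 B6. Their median depth was 824 reads per pool, and 14.4% and 35.8% of all genes with 500 to under 1000 reads were called CAST and B6. Aldoc, an aldolase of astrocytes, had 33.6%, 36.5%, 37.3% and 37.0% (log2 ratio −0.82 ± 0.04, SE; edgeR adjusted p = 2.6e-11), and the water channel Aqp4 had 59.1%, 61.1%, 61.5% and 61.2%. These 2 went opposite ways in every pool of the same tissue. Slc1a3, a glutamate transporter, averaged 56.4% ± 1.2.

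Oligodendrocyte markers gave 1 CAST call, the tight-junction gene Cldn11 (59.2% ± 4.9), and 3 B6 calls of 13, of which Mobp, a myelin protein, had 29.8%, 34.5%, 38.2% and 34.8% with 24 of 26 bases on the B6 side. The B6 calls of Trf and Sox10 did not hold in all scalings. Excitatory cortical neuron markers gave 2 CAST calls, among them Ntng1 (57.6% ± 3.8), and 1 B6 call, Nrgn, which did not hold in all scalings, of 14. Of 20 inhibitory neuron markers 2 were CAST and 4 B6. Tac1, the precursor of substance P, had CAST shares of 31.4%, 28.7%, 27.3% and 33.7% in the PFC. Its share was 47.9% ± 3.1 in the POA and 58.2% and 55.7% at E15, and both differences passed their tests (adjusted p = 0.0003 and 0.00012). Gad2, an enzyme of GABA synthesis, averaged 55.5% ± 2.2, but 10 of its 26 bases were on the B6 side, and on isolated bases its log2 ratio was −0.079 and not called. Striatal neuron markers, of which 7 were tested, gave 1 CAST call (Penk1, 56.8% ± 2.3) and 2 B6 calls (Tac1 and Pdyn, the second not in all scalings).

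MHC class I and antigen-processing genes gave no CAST and 5 B6 calls of 11, 4 of them in all scalings. H2-D1 and H2-K1 encode heavy chains that present peptides to T cells. H2-D1 had 10, 20, 12 and 18 CAST reads against 59, 99, 48 and 78 B6 reads, and H2-K1 had CAST shares of 26.5%, 29.6%, 28.8% and 37.5%. On genome-aligned reads their shares were 14.8% and 33.3%. H2 genes are close copies of each other, so their values are uncertain. H2-Ke2, also on this list, is listed by RefSeq as Pfdn6, a prefoldin subunit, and Tapbpl overlaps Vamp1. Immediate early genes gave 0 CAST and 5 B6 calls of 19, 4 of them in all scalings. The B6 calls were 26.3% of the list, near the 24.0% over all genes. CAST calls were 11.6% over all genes, and a list of 19 is short for such a share. Among the called genes were Ier2 (34.5% ± 6.0), Jun (38.3% ± 3.2) and Dusp1 (40.6% ± 3.1). The call of Fos did not hold in all scalings.

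Of 29 glutathione and detoxification genes 5 were CAST and 8 B6. Gstz1, of tyrosine breakdown, had 69.9%, 70.2%, 67.5% and 70.9%, while Gsta4 and Gstt1 (32.1% ± 6.0) were B6-sided, so members of this enzyme family lay on either side. Protocadherin and cadherin genes had more CAST than B6 calls, 15 against 6 of 69, with a median log2 of 0.07. These included Pcdh21 and Pcdhb6 (76.4% ± 10.3), against Pcdhb15 (21.9% ± 10.2) and Pcdhga11 (30.9% ± 6.1) on the B6 side. Clustered protocadherins resemble each other and those of the gamma cluster share exons, so single members are uncertain. Of 65 F-box and Trim genes 6 were CAST and 16 B6, and of 185 Zfp zinc finger genes 13 were CAST and 27 B6. The Zfp genes were shallow, with a median of 99 reads per pool, and of all genes with 50 to under 100 reads 9.68% were called CAST and 15.3% B6.

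Cytosolic ribosomal protein genes had 10 CAST and 20 B6 calls of 50, and nuclear genes of mitochondrial respiration 7 and 19 of 51. Both lists were deep, with medians of 669.5 and 676.75 reads per pool. Of all genes with 500 to under 1000 reads, 14.4% were called CAST and 35.8% B6, so the respiration list lay near the share of genes of its depth. Ribosomal protein genes have many processed copies in the genome, and the transcript and genome alignments parted in several. Rpl7 had a CAST share of 72.4% ± 4.6 on transcripts and 53.2% on genome-aligned reads, and its log2 ratio was 1.41 over all bases but −0.14 with its deepest base alone. Rps15 had 33.7% ± 1.0 on transcripts and 66.7% on a mean of 4 genome-aligned reads. Rpl23 had 31.1% under either alignment. Cox7a2 and Ndufb2, of the respiratory chain, had 77.4% and 62.9% on transcripts but 33.3% and 30.1% on genome-aligned reads, and Fbxl19, an F-box protein, had 33.7% ± 7.6 and 61.8%, and was called CAST on isolated bases (log2 ratio 0.73). Blood markers had 1 gene tested and none called, and none of the choroid plexus list could be tested.

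**Figure D4:**
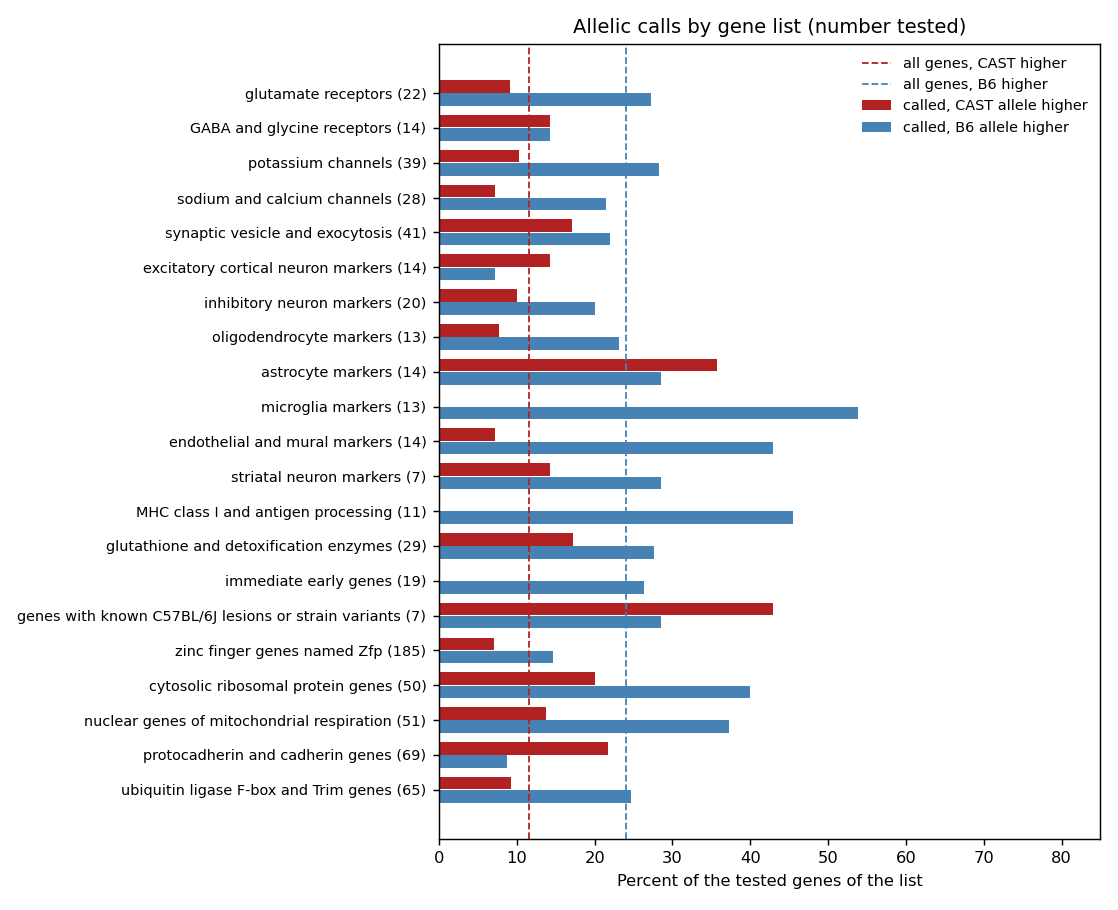
Percent of the tested genes of each list (x axis) called with the CAST allele higher (red) or the B6 allele higher (blue), with the number tested in parentheses on the y axis. Dashed lines mark all tested genes, 11.6% CAST and 24.0% B6. The microglia (13 tested), MHC (11) and immediate early gene (19) lists have no CAST call, but these lists are short. The cadherin list has more CAST than B6 calls.

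Among the deepest genes small differences were called, though some of them depended on the alignment. Among the 5 deepest CAST genes, Sparcl1, a secreted astrocyte protein, had 19326, 26313, 18284 and 21959 CAST reads against 17435, 23341, 16059 and 17929 B6 reads. Its CAST share was 53.5% ± 1.1 (edgeR adjusted p = 0.00014). App, the amyloid precursor protein, averaged 53.3% ± 1.0, Cpe, a carboxypeptidase of neuropeptide processing, 55.6% ± 2.4, Rph3a, a Rab3 effector, 53.0% ± 0.4, and Syngr1, a synaptic vesicle protein, 56.9% ± 1.4. The 5 deepest B6 genes included Thy1 (45.4% ± 1.0), Calm3 (44.9% ± 1.4), Prkcb1 (43.7% ± 1.3) and Kif5a. Kif5a (47.7%) lay so close to the median gene that its call did not hold in all scalings. Genome-aligned CAST shares were 49.9% for Rph3a and 51.2% for Syngr1, on means of 13426 and 11101 reads. For Sparcl1, App and Cpe they were 52.2%, 52.8% and 54.8%, and for Thy1, Calm3 and Kif5a 44.4%, 42.8% and 45.8%. Within these genes bases lay on both sides of 50%, 6 and 6 of 12 in Thy1 and 23 and 18 of 41 in Rph3a, whose log2 ratio was −0.096 and not called on its deepest base alone.

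Comparison of members with the POA used only bases listed in both regions. Of 1192 CAST-called genes measured there, 949 had a POA mean above 50% CAST, against 43.6% of all genes, and 524 were themselves called CAST in the POA, where 11.1% of all genes were. Of 2514 B6-called genes, 2107 were at or below 50% CAST in the POA, against 56.4% of all genes, and 1093 were called B6, against 17.0% of all genes. Opposite calls in the POA were made for 47 CAST-called and 54 B6-called genes. In E15 brain 989 of 1203 CAST-called genes were on the CAST side (37.3% of all genes were) and 2253 of 2519 B6-called genes on the B6 side (62.7% of all genes were). In the parental strains' E15 brains, where cis and trans differences add, the reads of each strain were scaled to its total. There 860 of 1152 CAST-called genes had a CAST share above 50%, against 40.6% of all genes. Of 2454 B6-called genes, 2032 had a share at or below 50%, against 59.4% of all genes. The genome alignment of the same PFC reads put 779 of 877 CAST-called genes above 50%, against 31.2% of all genes, and 1881 of 1915 B6-called genes on the B6 side, against 68.8%.

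The allelic ratio itself differed between PFC and POA for 404 genes with a higher CAST share in the PFC (3.9% of 10353) and 736 with a lower one (7.11%). The excess of lower shares rested on the scaling, since with each allele scaled to its own total, Atpase6 included, the numbers were 440 and 433. Without the POA F1i female pool they were 256 and 475, and without the PFC F1r female pool 263 were higher. Of genes called in the PFC, 286 CAST and 580 B6 genes were among them, mostly with the POA nearer to 50%, 261 and 534 genes. They had been chosen by their PFC values, which by itself favours that direction. In bulk tissue fewer cells of a type and less RNA per cell cannot be told apart, and a region's share averages over its cell types. Hopx, a homeodomain-only protein of progenitors and astrocytes, had CAST shares of 29.1%, 30.4%, 29.1% and 35.7% in the PFC against a mean of 63.9% ± 3.7 in the POA, which is a change of side. The difference in log2 ratio was −1.94 ± 0.13 (SE; edgeR adjusted p = 7e-10). Ob1 is a RefSeq synonym of Hopx with nearly the same reads and is no second observation.

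Stmn1, a microtubule-destabilising protein, had 26.2%, 26.4%, 29.4% and 26.6% in the PFC against 44.8% ± 1.5 in the POA. Lypd1, a neuronal modulator of nicotinic receptors, had 31.8%, 31.4%, 33.6% and 38.2% in the PFC against 52.2% ± 0.6 in the POA. Rps15 had 33.7% ± 1.0 in the PFC against 44.5% ± 1.1 in the POA. No PFC pool of these genes reached the POA mean. Sparcl1 (47.1% ± 0.3 in the POA), App (48.8% ± 0.9) and Penk1 (46.4% ± 2.5) were called CAST in the PFC and B6 in the POA, with each difference past its test (adjusted p = 1.3e-06, 0.00057 and 0.0011), though the absolute shifts for Sparcl1 and App were under 7 points.

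Between PFC and E15 brain, with only 2 embryonic pools, the CAST share was higher in the PFC for 225 of 10496 genes (2.14%) and lower for 178 (1.7%). These numbers were 110 and 92 without the PFC F1i female pool, 140 and 100 without the PFC F1r male pool, and 194 and 112 without the PFC F1i male pool. Cacng5 had 79.5% ± 4.2 in the PFC, and 48.5% and 52.8% in the E15 F1i and F1r pools, a log2 difference of 1.90 (edgeR adjusted p = 7.7e-07). Its POA mean was 57.5% ± 2.2. Pcdh21 had 80.6% ± 2.1 in the PFC against 50.7% and 42.2% at E15 and 52.7% ± 4.5 in the POA, where fewer of its bases were listed (76.4% in the PFC on those). Both genes were nearer to 50% in every POA and E15 pool than in any PFC pool. Syt13, a synaptotagmin, had 43.4% ± 0.7 in the PFC and 22.4% and 16.6% at E15, and Mt1, a metallothionein, 39.7% ± 0.4 in the PFC and 24.6% in either E15 pool. These 2 were B6-sided at both ages and more so in the embryo. Evc2 and Gsta4 went the other way, with 46.0% and 47.8% at E15 on average against 21.7% and 19.7% in the PFC. Ssb, an RNA-binding protein, had 14.9% ± 7.2 in the PFC and 47.7% and 52.4% at E15, but only 1 of its bases had 40 reads, and the genome-aligned PFC share was 49.3% on a mean of 146 reads.

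**Figure D5:**
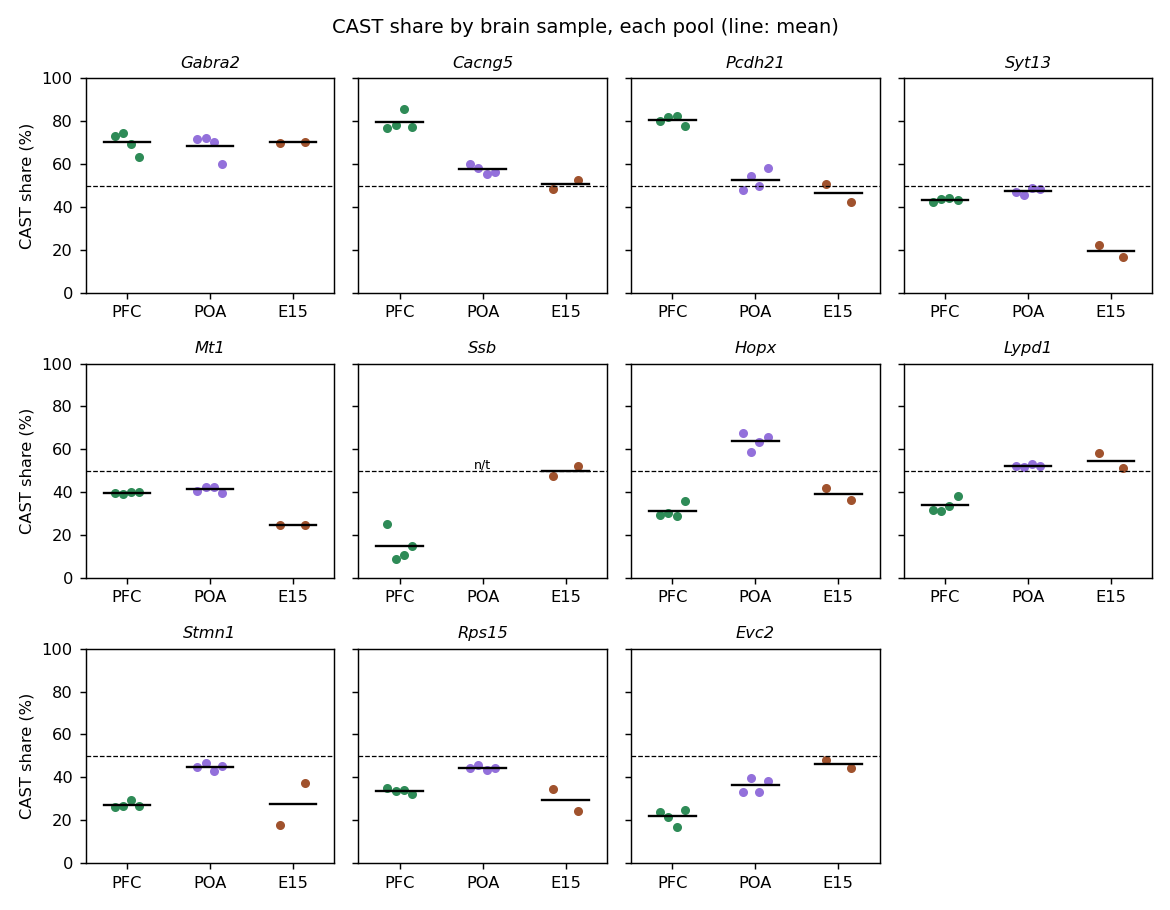
CAST share (%, y axis) in each pool of PFC (4), POA (4) and E15 brain (2) for 11 genes named in the text, POA and E15 over the bases they share with the PFC, with the mean as a line and 50% dashed; n/t marks a gene not tested in that region. Gabra2 has nearly the same share in all samples (70.1%, 68.5% and 70.2%), Hopx crosses 50% between PFC and POA, and Cacng5 and Pcdh21 are high in the PFC.

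The CAST share differed by sex in the PFC for 5 of 11029 genes (0.0453%) in edgeR's test, which had a single residual degree of freedom, with 549 at an unadjusted p under 0.05. They were Rasgrf1, Impact, Gtl2 (Meg3 in RefSeq), Atpase6 and Muc19. Of these, Rasgrf1, Impact and Gtl2 are imprinted genes and Atpase6 follows the mother as a mitochondrial gene does. Their shares were high in 1 cross and low in the other, with few reads from the lower allele: Rasgrf1 had 14 of 1988, 34 of 2999, 2667 of 2741 and 2957 of 3183 reads from CAST. None of these 4 is a member, since their crosses lay on opposite sides. Among all genes, 43 passed the adjusted p but were left uncalled by the side rule. By chromosome, CAST calls were from 8.02% of tested genes on chromosome 17 to 16.4% on chromosome 13, and B6 calls from 20.9% on chromosome 19 to 27.3% on chromosome 14.

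At the edge of the side rule, Aars was just inside, with CAST shares of 49.96% in F1i and 49.98% in F1r, and Gal3st3 just outside, with 50.01% and 49.94%. At the edge of the read filter, 57 members had a mean of 20 to under 21 reads per pool. Membership thus says little of a single gene near 50%, and the calls rest on the test.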

How the data were processed

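Counts per informative base were deposited by the authors: for each base that differs between the strains, how many reads of each pool carried the CAST base and how many the B6 base, technical replicates summed per the labels' protocols. Alignment used Novoalign and mm9, per the submitters' processing notes; strandedness and read filters are not given in the sources used here. Every listed base has at least 1 read in each pool of its region. Repeated listings (911 in the PFC) were dropped, and reads were summed over the bases of the transcript with most reads per gene, so that a read of 36 bases over 2 listed bases counts for both.

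edgeR 4.0.16 (R 4.3.3) fitted the CAST and B6 counts of each pool with a term per pool, for allele and for allele by cross, equal library sizes for both alleles and the quasi-likelihood test on 2 residual degrees of freedom. Allele by region, age and sex terms gave the other comparisons, on bases listed in both tables. Both alleles of a pool are paired by the pool term. P-values of the PFC test rest on the spread between the male and the female pool of a cross, moderated in edgeR by a trend over all genes. A gene with unlike pools could still be called. Muc19 had CAST shares of 0%, 60%, 0% and 25% and was called B6 (edgeR adjusted p = 0.021). The allele by cross term takes up the difference between crosses, which the SD over the 4 pools includes. The p-values cover no new animals. The fitting was tested on simulated counts without a cross effect or reads shared between bases, so they do not give its error rate in these data. DESeq2 1.42.0, 3 scalings, read filters, other ways of summing bases and leaving out each pool were the alternatives. Genes named in the text were the 12 highest and 12 lowest log2 ratios with 100 or more reads and 3 or more bases, up to 4 called genes of largest ratio per list, all genes of the list of known variants, the 5 smallest adjusted p-values of each other comparison and the 5 deepest called genes per side; some of them are not reported here. The members, lists and rule were chosen with earlier results of these data known. Gene positions came from GENCODE vM1 and newer names from RefSeq (names alone). Windows came from NCBIM37, where the reference base matched in 72 of the named genes. Adult parental libraries were not used here.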

Additional observations from a re-analysis of the deposited data

Results flagged for a closer look

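In 13 of the named genes 1 PFC pool stood apart from the other 3 by Dixon's criterion at its 95% level, which chance alone meets in about 1 of 20 genes. The F1i male pool was low for Aqp4 (59.1%), Cacna1h (35.8%), Nrgn (44.9%), Sirpb1 (92.6%) and Thy1 (43.8%). The F1i female pool was high for Rsph1 (89.7%). The F1r male pool was high for Cacnb2 (43.8%), Cacng5 (85.7%) and Stmn1 (29.4%) and low for Ndufa12 (29.9%) and Vtn (32.6%). The F1r female pool was high for C1qb (45.4%) and Grik4 (44.3%). In each of these genes the pool that stood apart was on the same side of 50% as the other 3. All 13 were called genes, which need both crosses on 1 side, so their choice favoured this.

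The log2 CAST to B6 ratio differed between PFC and POA for Hopx (−1.94), Ob1 (−1.93, the same locus), Stmn1 (−1.13), Lypd1 (−1.09) and Rps15 (−0.66). Between PFC and E15 brain it differed for Ssb (−2.59), Pcdh21 (2.26), Cacng5 (1.90), Syt13 (1.65) and Mt1 (1.02).

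Between female and male PFC pools the ratio differed for Muc19 (9.13), Impact (−1.30), Gtl2 (1.27), Rasgrf1 (−0.99) and Atpase6 (0.51). Muc19 had 108 of 180 CAST reads in the F1i female and 36 of 144 in the F1r female pool, and 0 of 72 and 0 of 36 in the male pools, on 36 listed bases, so few independent reads stand behind its value.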

How the results depend on the processing

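The called numbers moved by more than 1.5 times under DESeq2 (524 CAST and 1152 B6 genes), with X-linked genes in the fit (781 and 1725), with each allele scaled to its own total (2048 CAST) and with the deepest base alone (1724 B6); the cause was not tested. Leaving out 1 PFC pool gave 854 to 1068 CAST and 1895 to 2074 B6 genes. The region test gave 440 genes with a higher and 433 with a lower CAST share in the PFC under allele-own totals, and 256 to 362 higher and 475 to 648 lower without 1 pool, lowest without the POA F1i female pool (256 and 475), with 263 higher without the PFC F1r female pool. The age test gave 110 to 196 higher and 92 to 181 lower without 1 PFC pool: 110 and 92 without the F1i female, 140 and 100 without the F1r male, and 112 lower without the F1i male pool.

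Of 128 named genes, 77 kept their direction and side of the threshold in every alternative that gave a value. A ratio turned for Fbxl19 (0.73) and Gad2 (−0.079) on isolated bases, for Gabra5 (−0.030), Rph3a (−0.096) and Rps15a (0.14) on the deepest base, and for Rpl7 on either (−0.14 and −0.14). Of these, Fbxl19 was called CAST there (edgeR adjusted p = 0.0033). Both alleles of a pool are paired by the pool term in every edgeR fit. By technical replicate number no paired analysis was possible because the deposited columns are already sums over those replicates. With 20 reads in a pool a share is known only roughly.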
